A study of Mus musculus with 6 samples.

Results

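The adenylate kinase genes Ak4, Ak3 and Ak1 were followed through low oxygen in B16 cells, an established mouse melanoma line grown in culture. They were taken as every probe set annotated to one of these 3 genes, of 12394 genes named on the array. There were 9 such probe sets, 4 for Ak4, 3 for Ak3 and 2 for Ak1. Ak4 was chosen by its own signal, because it had stood out as higher in hypoxia in earlier results of these data, so its differences between hypoxia and normoxia are given as a description, without a test. Of the 9 probe sets, 6 passed a filter on low signals that is described with the arrays.

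RNA was measured on 6 Affymetrix arrays, 1 for each group, with no replicates. All cells had been without serum for 2 h before the exposure. One culture condition was normoxia for 3 h. Chronic hypoxia was 3 h at less than 1% oxygen, and cyclic hypoxia was 3 periods of 1 h of hypoxia with 30 min of reoxygenation between them. Cells of every regime were harvested when the exposure ended or 1 h after it, and for both hypoxic regimes that last hour was spent reoxygenated. The growth medium held 10% serum. No genetic change or drug is named in the labels, and they do not say whether normoxia cells were kept for as long as the cyclic ones.

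Adenylate kinases move a phosphate group between adenine nucleotides, so that a pair of ADP molecules is turned into ATP and AMP and back. Through AMP they feed the energy sensor AMPK, which is switched on when ATP runs low. The isoenzymes sit in different compartments. AK1 is the main cytosolic form, AK3 lies in the mitochondrial matrix and takes its phosphate from GTP, and AK4 is a matrix protein with low enzymatic activity whose gene is known as a target of HIF, the transcription factor stabilised when oxygen falls. HIF binds DNA at a short core that reads ACGTG or GCGTG.

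The stretches upstream of these genes are shown because Ak4 is known as a HIF target, so a reader can see where that core occurs beside the genes compared. They come from the RefSeq promoter table (GRCm38.p6), which holds windows of 300 bases, most of them upstream of each annotated start. Capitals mark ACGTG or GCGTG on either strand, so that the reverse complements CACGT and CACGC are capitalised too. The first line is the 120 bases before the most upstream Ak4 start in that table (chr4:101419169-101419288, plus strand), the second is 30 bases upstream of a later Ak4 start (chr4:101419477-101419506, plus strand), the third is the 120 bases before the Ak3 start (chr19:29047962-29048081, minus strand, written in the direction of the gene), and the last is 30 bases upstream of one of the Ak1 starts (chr2:32629455-32629484, plus strand).
Ak4 first start: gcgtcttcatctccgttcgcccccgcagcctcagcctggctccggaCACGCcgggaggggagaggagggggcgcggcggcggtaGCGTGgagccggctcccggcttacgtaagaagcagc
Ak4 later start: tcccactctgccCACGTGcggggaccggca
Ak3: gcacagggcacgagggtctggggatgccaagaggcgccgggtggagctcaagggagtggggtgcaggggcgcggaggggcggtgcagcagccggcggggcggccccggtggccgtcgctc
Ak1: tctctatggcaaCACGTtgtggttgccaca

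All 4 of the Ak4 windows held at least 1 of the motifs, against 0 of 1 for Ak3 and 3 of 4 for Ak1. In the most upstream Ak4 window GCGTG began 36 bases before the start, and its reverse complement 74 bases before it. The next 2 Ak4 windows overlap the first and hold the same bases. The later Ak4 window held CACGTG, which reads the same on both strands, contains ACGTG on each of them and is also the core of an E-box, beginning 214 bases before that start. Of all 32851 promoter windows in the table, 19.6% held ACGTG, 32.4% GCGTG and 43.8% either one, so a match is common. These are matches of letters only, no binding was measured here, and no match in the Ak3 window says only that these letters are not in it.

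The deposited values are signals on a linear scale. The trimmed mean of every array was 100 units to 3 significant digits, and the medians were 15.9 to 19.3 units. A floor was placed at the 20th percentile of the signals, 2.10 units, to which lower signals were raised for log2 values, and 13556 probe sets with a mean signal of at least 8.33 units, for 7746 genes, were used in comparisons across the array. The lowest mean correlation with the others across probe sets (r = 0.940, against 0.962 to 0.966) was that of the cyclic hypoxia array with reoxygenation. Markers of the labelled cells were strong: 6 of 7 melanocyte markers were on the array, with mean signals of 1126 to 6064 units, and their summed signal lay between 17658 and 23299 units. One of them, Mitf, the melanocyte master regulator, differed from normoxia by -2.02 on the log2 scale in that same array. Summed signals were 13.6 to 28.2 units for 5 fibroblast markers, 41.2 to 60.1 for 4 of immune cells, 2.64 to 16.05 for 4 of endothelial cells and 11.96 to 20.2 for 4 of keratinocytes. RNA came from whole cultures, in which more cells expressing a gene and more of its RNA per cell cannot be told apart.

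Ak4 was measured most brightly by probe set 1450387_s_at. Its signal was 13.02 units in normoxia, 15.4 in normoxia 1 h later, 259 after chronic hypoxia, 208 after chronic hypoxia and reoxygenation, 55.7 after cyclic hypoxia and 26.2 after cyclic hypoxia and reoxygenation. All 4 hypoxia arrays lay above both normoxia arrays, and both chronic arrays lay above both cyclic ones. Relative to normoxia cells harvested at the same point the log2 differences were 4.31 and 2.10 at the end of chronic and cyclic hypoxia, and 3.75 and 0.76 in the last collection. The first is a 19.9-fold and the last a 1.70-fold difference in signal. The normoxia signals are dim, below the array medians, and with an offset of 16 units added to every signal these folds were 9.48 and 1.34.

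The second Ak4 probe set, 1421830_at, gave the same order of regimes, with smaller differences from normoxia. Its signals were 12.2 and 10.9 units in the normoxia arrays, 96.5 and 84.2 in the chronic arrays, and 20.7 and 17.1 in the cyclic arrays, each at the end and 1 h later. Its log2 differences from normoxia were 2.99 and 2.95 for chronic hypoxia at the end and 1 h later, and 0.77 and 0.65 for cyclic hypoxia. The size of the Ak4 difference therefore depends on the probe set. At the end of exposure the brighter probe set exceeded the second by 1.32 for chronic and by 1.33 for cyclic hypoxia on the log2 scale, while the step from chronic to cyclic hypoxia was the same on both, -2.22. Across the 6 arrays the log2 values of these probe sets correlated with r = 0.98 (a description, over arrays that share their RNA between both probe sets).

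The remaining Ak4 probe sets were too dim to use and did not show the pattern. Probe set 1421829_at was below the floor in 5 of 6 arrays, and its only value above it, 3.29 units, was in chronic hypoxia. Probe set 1421831_at gave 4.76 and 6.23 units in the normoxia arrays, 3.90 and 7.49 in the chronic arrays, and 1.06 and 1.63 in the cyclic arrays, the latter below the floor. Both have mean signals under the filter. The brighter pair passed it without the help of hypoxia, since their normoxia means of 14.2 and 11.5 units were above 8.33.

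**Figure D1:**
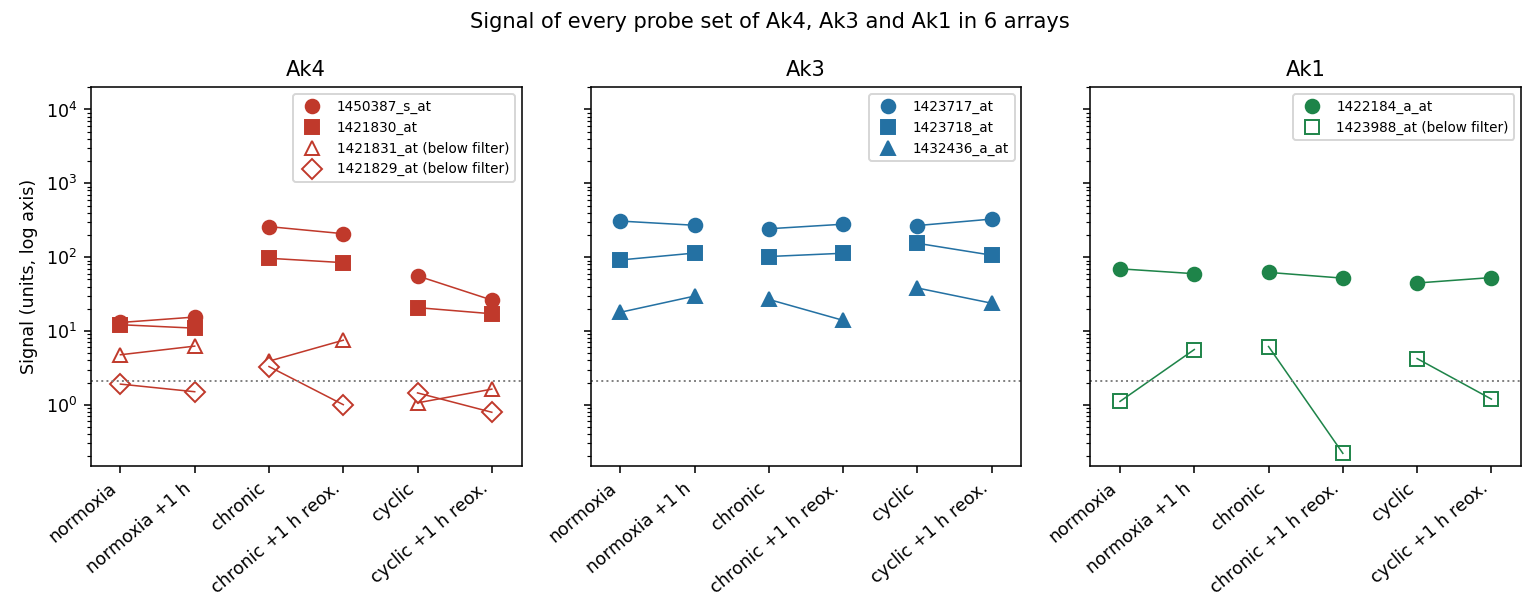
Signal (units, log axis) of every probe set of Ak4, Ak3 and Ak1 in each of the 6 arrays, 1 point per array, with lines joining the collections of one regime and a dotted line at the floor of 2.10 units. Both filled Ak4 series rise in the chronic arrays (259 and 208 units for circles) and less in the cyclic ones. The groups overlap in the filled Ak3 series, of which the dim 1432436_a_at spans 13.9 to 38.2 units. In the filled Ak1 series the chronic arrays overlap normoxia. Both cyclic Ak1 values (44.6 and 52.9 units) lie below both normoxia values (69.5 and 59.7). Open symbols are probe sets below the filter.

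Ordered by level, the brightest Ak4 probe set ran from chronic hypoxia through chronic hypoxia with reoxygenation, cyclic hypoxia, cyclic hypoxia with reoxygenation and later normoxia down to early normoxia. The steps between neighbours in that order were 0.32, 1.90, 1.09, 0.76 and 0.24 on the log2 scale. As a yardstick without replicates, the normoxia arrays differed from each other by up to 1.35 at 95% of 2234 probe sets within 1.5-fold of Ak4 in normoxia signal, with a median of 0.37. It applies to signals near those of normoxia, so it bears on the lower end of the order, where cyclic hypoxia with reoxygenation and both normoxia arrays were neighbours that did not differ beyond it. On the second probe set the steps were 0.20, 2.02, 0.28, 0.49 and 0.15, with the normoxia arrays in the opposite order at the lower end, and the spread there was 1.59. The yardstick also holds any real change over the extra hour of normoxia.

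At the end of chronic hypoxia the log2 difference of Ak4 on its brightest probe set, which alone was ranked, was 1 among 7746 genes, and 1 h later 2. With the floor at the 10th percentile these ranks were 4 and 3, behind Stc1 (4.84 and 4.61, from normoxia signals under the higher floor) and others. After cyclic hypoxia Ak4 ranked 16, and 487 in the last collection. These ranks describe the pattern for which Ak4 was chosen.

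**Figure D2:**
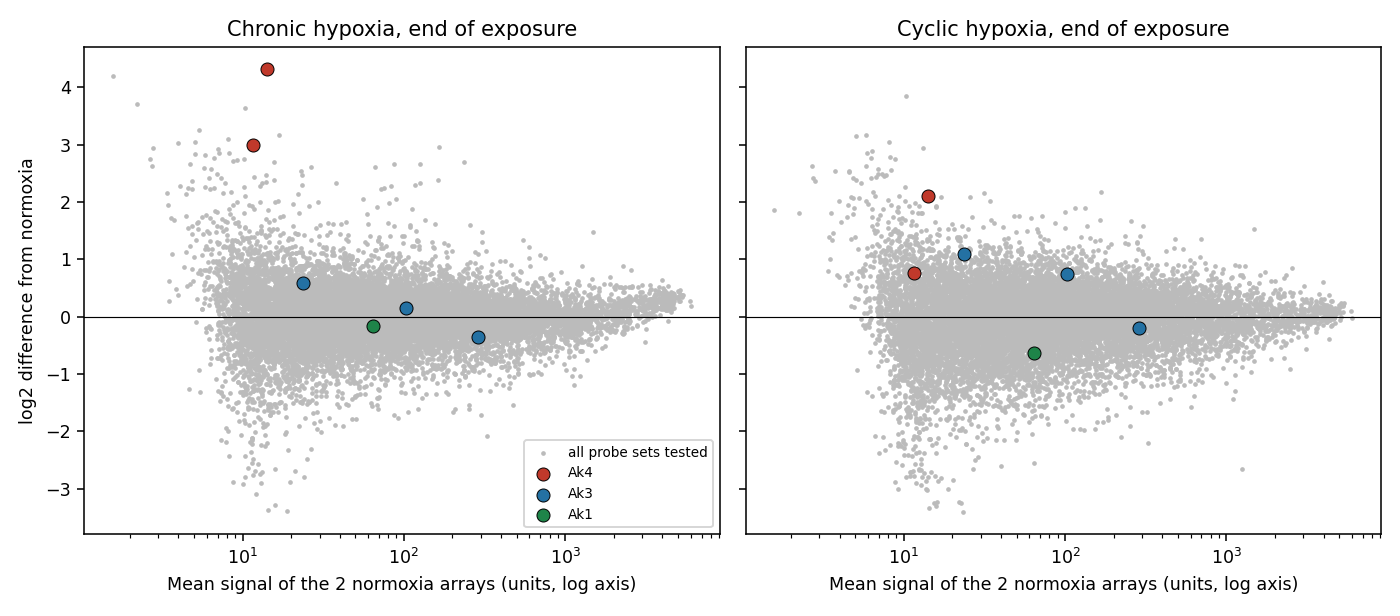
log2 difference from normoxia at the end of chronic (left) and cyclic hypoxia (right) against the mean signal of the normoxia arrays (units, log axis), 1 point per probe set, with all 13556 tested probe sets in grey. The Ak4 points (red) lie at the upper edge of the cloud in chronic hypoxia, at 4.31 and 2.99, among dim probe sets whose scatter is wide; Ak3 (blue) and Ak1 (green) lie inside the cloud.

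Over the last hour the Ak4 signal was lower at the second collection in both hypoxic regimes, by amounts that differed between the probe sets. On the brightest probe set the log2 difference between collections was 0.24 in normoxia, -0.32 after chronic and -1.09 after cyclic hypoxia. On the second these were -0.15, -0.20 and -0.28, so the normoxia signal was lower there as well. Without replicates these steps have no measure of spread. After reoxygenation the signal in the chronic regime was thus still 13.5-fold and 7.72-fold that of normoxia on the respective probe sets, and in the cyclic regime 1.70-fold and 1.57-fold. Cyclic against chronic hypoxia differed by -2.22 on both probe sets at the end and by -2.99 and -2.30 in the last collection. The values for the cyclic regime in the last collection rest on the array with the lowest correlation.

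Ak3, the matrix kinase that uses GTP, had no common direction over its 3 probe sets. The brightest, 1423717_at, gave 308 and 270 units in the normoxia arrays, 242 and 279 in the chronic arrays, and 268 and 328 in the cyclic arrays, each at the end and 1 h later. The groups overlapped, with a range over all 6 arrays of 0.44 on the log2 scale, where that of Ak4 was 4.31. Against normoxia the log2 differences were -0.35 (chronic) and -0.20 (cyclic) at the end, and 0.047 and 0.28 later, and the 0.047 turned to -0.082 with median centring.

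The second Ak3 probe set, 1423718_at, gave 91.5 and 114 units in normoxia, 102 and 113 in the chronic arrays and 154 and 106 in the cyclic arrays. The value of 154 after cyclic hypoxia was its highest, 0.75 above normoxia on the log2 scale, where the brightest Ak3 probe set was lower by 0.20 in the same array. The third, 1432436_a_at, was dim, at 17.9 and 29.7 units in normoxia, 26.7 and 13.9 in the chronic arrays and 38.2 and 23.8 in the cyclic arrays. Its normoxia arrays alone differed by 0.73, and its differences from normoxia ran from -1.09 to 1.09.

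Ak1, the cytosolic kinase, was slightly lower than its normoxia array in 4 of 4 hypoxia arrays on its measured probe set, 1422184_a_at, but in 3 of 4 with quantile normalization, where the difference after cyclic hypoxia and reoxygenation was 0.0036. The signals were 69.5 and 59.7 units in normoxia, 62.1 and 51.9 in the chronic arrays and 44.6 and 52.9 in the cyclic arrays. The log2 differences were -0.16 and -0.64 at the end of chronic and cyclic hypoxia, and -0.20 and -0.17 later, beside -0.22 between the normoxia arrays. Its second probe set, 1423988_at, did not exceed 6.15 units and was below the floor in 3 of 6 arrays.

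Tests were run for Ak3 and Ak1 in a limma fit across all 13556 probe sets with terms for regime and collection, in which the collections stand in for replicates of a regime. Mean hypoxia differed from normoxia by -0.06 (SE 0.18, adjusted p = 0.953) at the brightest Ak3 probe set and by -0.29 (SE 0.22, adjusted p = 0.726) for Ak1. For chronic hypoxia the differences were -0.15 (SE 0.20) and -0.18 (SE 0.25), both with an adjusted p of 1.00. For cyclic hypoxia they were 0.04 (SE 0.20, adjusted p = 0.948) and -0.41 (SE 0.25, adjusted p = 0.491), and cyclic against chronic hypoxia gave 0.19 (adjusted p = 0.708) and -0.23 (adjusted p = 0.719). The other Ak3 probe sets did not pass either, with adjusted p from 0.541 to 1.00. The last hour was spent reoxygenated only in the hypoxic regimes, and the fit averages the collections. A response to reoxygenation can therefore count as residual spread in the SE and p. The -0.06 of Ak3 averages values of opposite sign, -0.35 and -0.20 at the end and 0.047 and 0.28 later. With 2 residual degrees of freedom these values do not show that Ak3 and Ak1 did not change.

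**Figure D3:**
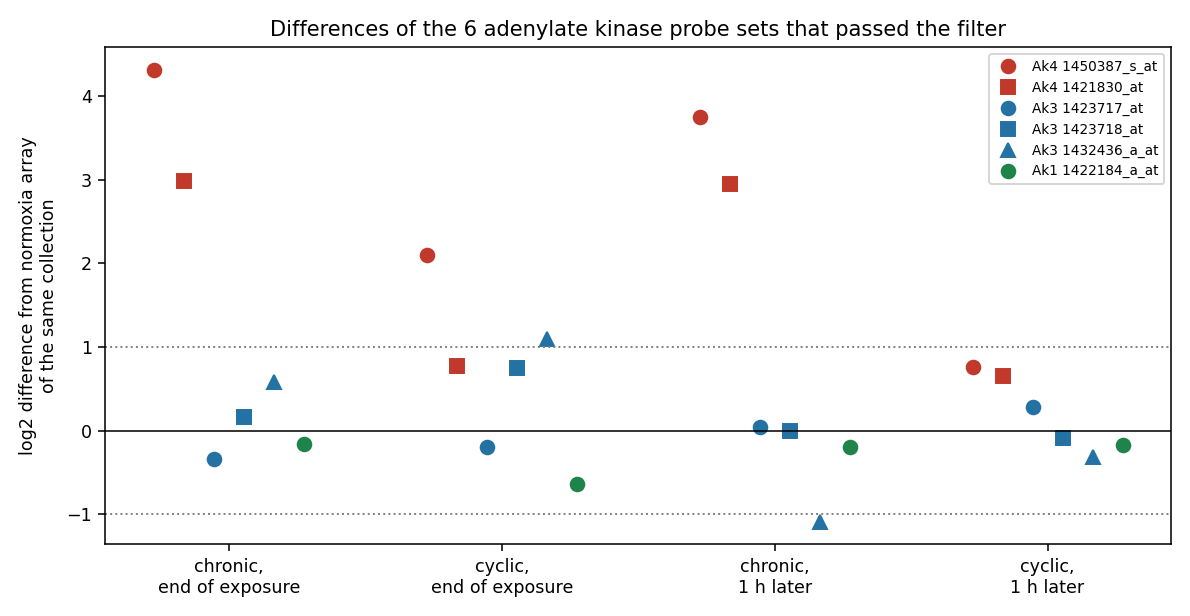
log2 difference of each hypoxia array from the normoxia array of the same collection (vertical axis) for the 6 adenylate kinase probe sets that passed the filter, 1 point per probe set and comparison, with dotted lines at 2-fold. Both Ak4 probe sets are far above 1 in the chronic comparisons (4.31 and 2.99 at the end, 3.75 and 2.95 later). At the end of cyclic hypoxia the brightest (2.10) stays above all Ak3 and Ak1 points, and the second (0.77) lies below 1 Ak3 point (1.09). In the later cyclic comparison both (0.76 and 0.65) lie above these points, by less than in the chronic ones.

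Set against the other members in the same arrays, so that any scaling of a whole array drops out, Ak4 stood apart in the chronic regime on both of its usable probe sets. At the end of chronic hypoxia the log2 difference of the brightest Ak4 probe set exceeded those of the 3 Ak3 and 1 Ak1 probe sets by 3.73 to 4.66, and that of the second by 2.41 to 3.34. In the last collection the excess was 3.70 to 4.84 and 2.90 to 4.04. After cyclic hypoxia it was smaller, at 1.00 to 2.74 on the brightest probe set, and on the second it ran from -0.33 to 1.41, so that there 1 Ak3 probe set was higher than Ak4. After cyclic hypoxia and reoxygenation it was 0.49 to 1.08 and 0.37 to 0.97. Because Ak4 was chosen for its differences, no test of this contrast is given. The chronic and cyclic comparisons share their normoxia array at each collection.

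Counted by gene, with the brightest probe set standing for each, 1 of the 3 members was at least 2-fold higher at the end of chronic hypoxia (2.53% of all 7746 genes were), 1 at the end of cyclic hypoxia (2.12%), 1 after chronic hypoxia and reoxygenation (2.98%) and 0 after cyclic hypoxia and reoxygenation (3.56%). In each case of 1 this was Ak4. At least 2-fold lower were 0 of 3 in every one of these comparisons, beside 2.36%, 5.44%, 1.12% and 10.6% of all genes.

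Other adenylate kinases were hardly covered. Beside the 3 members, Ak5, a cytosolic form best known from brain, had a probe set that named it alone. Ak5 gave 8.17 and 5.04 units in normoxia, 3.99 and 8.77 in the chronic arrays and 10.1 and 12.1 in the cyclic arrays, below the filter on average. A probe set for Ak6 also names Taf9 and was not used, and other family genes were not analysed here.

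The genes whose profile over the 6 arrays was most like that of Ak4 are named here as a description, since the profile they were matched to had been chosen as high in hypoxia. They were ranked by Pearson r with the brightest Ak4 probe set among 2402 genes whose log2 range was at least 1, and 33 had r over 0.9. The first was Noct (nocturnin, a gene of the circadian system; r = 0.99), with 60.2 and 63.4 units in normoxia, 160 and 144 in the chronic arrays and 89.1 and 66.6 in the cyclic arrays. It was followed by Sap30 (a part of the Sin3 corepressor; 0.98), Stc1 (a secreted glycoprotein; 0.98), Slc2a1 (the glucose transporter GLUT1; 0.98), Pvt1 (a long noncoding RNA next to Myc; 0.97), Ero1a (an oxidase of protein folding; 0.97), Jmjd6 (0.97), Atg2b (an autophagy protein that transfers lipids; 0.97), Hk2 (hexokinase 2; 0.97) and Egln1 (the oxygen sensor PHD2, which hydroxylates HIF; 0.96). All of these values share the same 6 arrays and the same high chronic pair, so r is only a measure of likeness.

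Stc1 passed the filter only through the hypoxia arrays, and its r and its span rest on values at the floor. It was at 38.7 and 44.0 units in the chronic arrays against values below the floor in both normoxia arrays and after cyclic hypoxia with reoxygenation. Sap30 went from 89.8 and 88.7 units in normoxia to 375 and 454 in the chronic arrays, with 155 and 106 in the cyclic ones. Ero1a showed the largest loss in the last hour of the cyclic regime after Stc1, from 509 to 203 units, which is below its 264 units in the matched normoxia array. Atg2b, by contrast, went only from 14.4 and 13.5 units to 28.1 and 31.6 in the chronic arrays. With the second Ak4 probe set as the reference 6 of these 10 genes remained among the first 10.

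**Figure D4:**
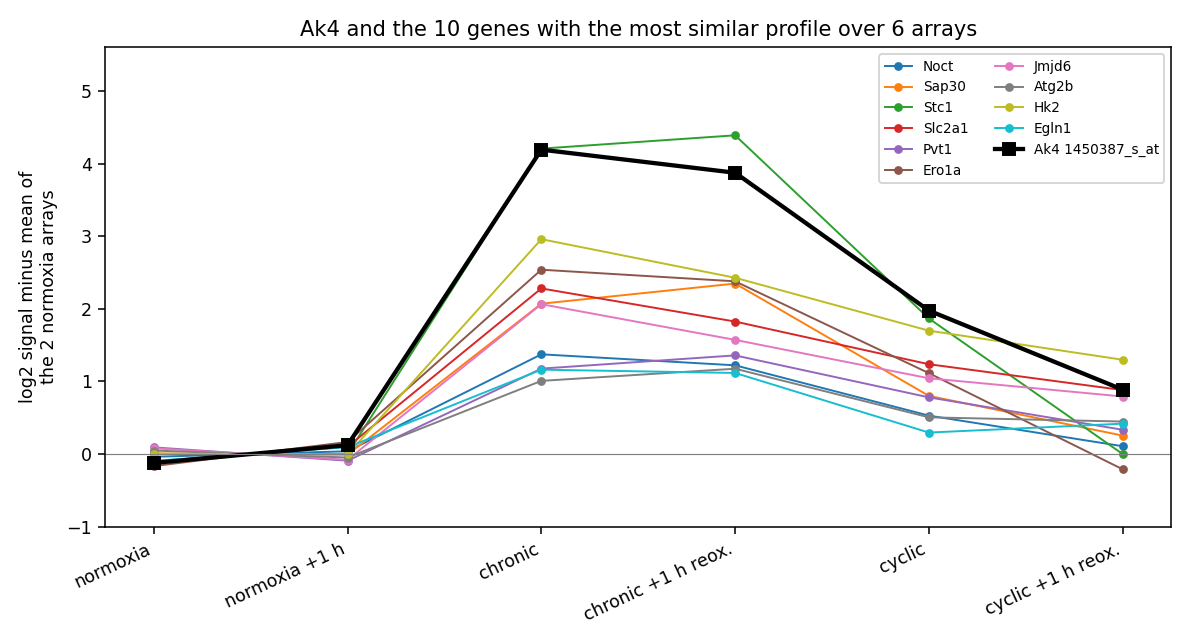
log2 signal minus the mean of the normoxia arrays (vertical axis) in the 6 arrays for Ak4 (black squares) and the 10 genes with the highest Pearson r to it, 1 line per gene; lines only guide the eye. All lines are highest in the chronic arrays and lower in the cyclic ones, with Ak4 and Stc1 above the other genes in the chronic arrays.

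Around Ak4, genes of nucleotide and energy transfer were read from 7 lists with 66 genes, 48 of them measured. At the end of chronic hypoxia 2 of the 48 were at least 2-fold higher and 2 lower (median -0.04, beside 0.00 over all genes), and at the end of cyclic hypoxia 2 and 2 (-0.04, beside -0.03). In the last collection the counts were 2 and 0 for chronic (-0.10, beside 0.00) and 1 and 5 for cyclic hypoxia (0.20, beside 0.00). As shares of the 48, the higher counts are 4.17%, 4.17%, 4.17% and 2.08% in the order given, and the lower ones 4.17%, 4.17%, 0% and 10.4%, to be read beside the shares of all genes given with the members. All of the higher values were Pdk1 or Bnip3, and apart from these the highest difference of any listed gene at the end of chronic hypoxia was 0.56.

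Of the other nucleotide kinases, which pass phosphate among nucleotides outside the adenylate kinase reaction, 7 of 9 were measured, with a median of -0.25 after chronic hypoxia. Cmpk2, a mitochondrial kinase of pyrimidine nucleotides, was dim and went from 23.4 units in normoxia to 10.9 after chronic hypoxia, a log2 difference of -1.10. Cmpk1, its cytosolic counterpart, was at 431 units in normoxia and 183 after cyclic hypoxia in the last collection, a difference of -1.24. The bright nucleoside diphosphate kinases Nme1 and Nme2 differed by 0.19 and 0.24 after chronic hypoxia. A list drawn up around GTP in the matrix, the substrate of AK3, had all 6 of its genes measured, but not all of them form GTP. Only Sucla2, the ADP-forming subunit of succinyl-CoA synthetase, passed 2-fold, at -1.04 after cyclic hypoxia and reoxygenation, and Suclg2, the GTP-forming subunit, gave -0.06 after chronic hypoxia.

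Of 9 genes of AMPK subunits and activating kinases, 5 were measured, and 0 were higher by 2-fold. The catalytic subunits Prkaa1 and Prkaa2 had no probe set that named them alone, so they were not measured. Camkk2, the calcium-dependent kinase that activates AMPK, was lower in both cyclic arrays, at 72.8 and 62.3 units against 161 and 131 in normoxia, with log2 differences of -1.15 and -1.08. It was less changed in the chronic arrays, at -0.32 and -0.18. Of 16 genes on a list drawn up around AMP and adenosine turnover 11 were measured, but not all of them act on AMP or adenosine. Ampd3, which deaminates AMP, was at 15.9 units after cyclic hypoxia against 37.1 in normoxia, a difference of -1.22, while chronic hypoxia gave 0.33. The nucleotidase Nt5c3 (-1.05) and the adenylosuccinate synthase Adssl1 (-1.11) were lower after cyclic hypoxia and reoxygenation. Adssl1 was dim, at 11.8 units against 25.5 in normoxia. In that comparison 10.4% of the 48 listed genes were at least 2-fold lower, close to the 10.6% of all genes. It rests on the array with the lowest correlation with the others.

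The partners in energy transfer showed no gene that followed Ak4. Of 7 phosphocreatine genes 4 were measured, with a median of -0.54 after chronic hypoxia and 0 past 2-fold. Of 9 adenine nucleotide carriers and mitochondrial pores 8 were measured. The main adenine nucleotide translocators Slc25a4 and Slc25a5 differed by 0.07 and 0.11 after chronic hypoxia, and Slc25a23, a calcium-regulated carrier, was dim and lower, at 8.40 units against 20.3 (-1.27).

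The last list held mitochondrial proteins, some of them chosen because they respond to hypoxia, and 7 of 10 were measured. Pdk1, the kinase that restrains pyruvate entry, was at 152 and 83.5 units after chronic and cyclic hypoxia against 24.96 in normoxia. Bnip3, a receptor of mitophagy, was at 803 and 332 units against 127. Atpif1, the inhibitor of ATP synthase, differed by -0.01 after chronic hypoxia. Higd1a, a mitochondrial protein known to respond to hypoxia, was at 878 units against 598 in normoxia, a difference of 0.55.

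In the limma fit 1 of the 48 listed genes was called for chronic hypoxia (0.0959% of the probe sets tested were called higher and 0% lower) and the same gene for mean hypoxia (0.0148% higher and 0% lower). This was Bnip3, whose list was chosen with earlier results of these data known, in part for responses to hypoxia. Its p-values are therefore a description and not independent support. For chronic and mean hypoxia Bnip3 rose by 2.41 (SE 0.22, limma, adjusted p = 0.0191) and 1.94 (SE 0.19, limma, adjusted p = 0.0488), higher in 4 of 4 hypoxia arrays. Without the array after chronic hypoxia the first gave an adjusted p of 0.0652, and without the early normoxia array the second gave 0.0527. Without the filter on dim probe sets they were 0.485 and 0.572, and without the intensity trend 0.423 and 0.556. For cyclic hypoxia limma called 0 listed genes and 0% of all probe sets in either direction, with 6 listed genes and 2024 probe sets at an unadjusted p under 0.05. Bnip3 gave 1.48 for cyclic hypoxia (limma, adjusted p = 0.0929). It passed with quantile normalization (limma, adjusted p = 0.0481) and median centring (limma, adjusted p = 0.00478). It also passed when the reoxygenated chronic array (limma, adjusted p = 0.0447) or the array at the end of cyclic hypoxia (limma, adjusted p = 0.00277) was left out.

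**Figure D5:**
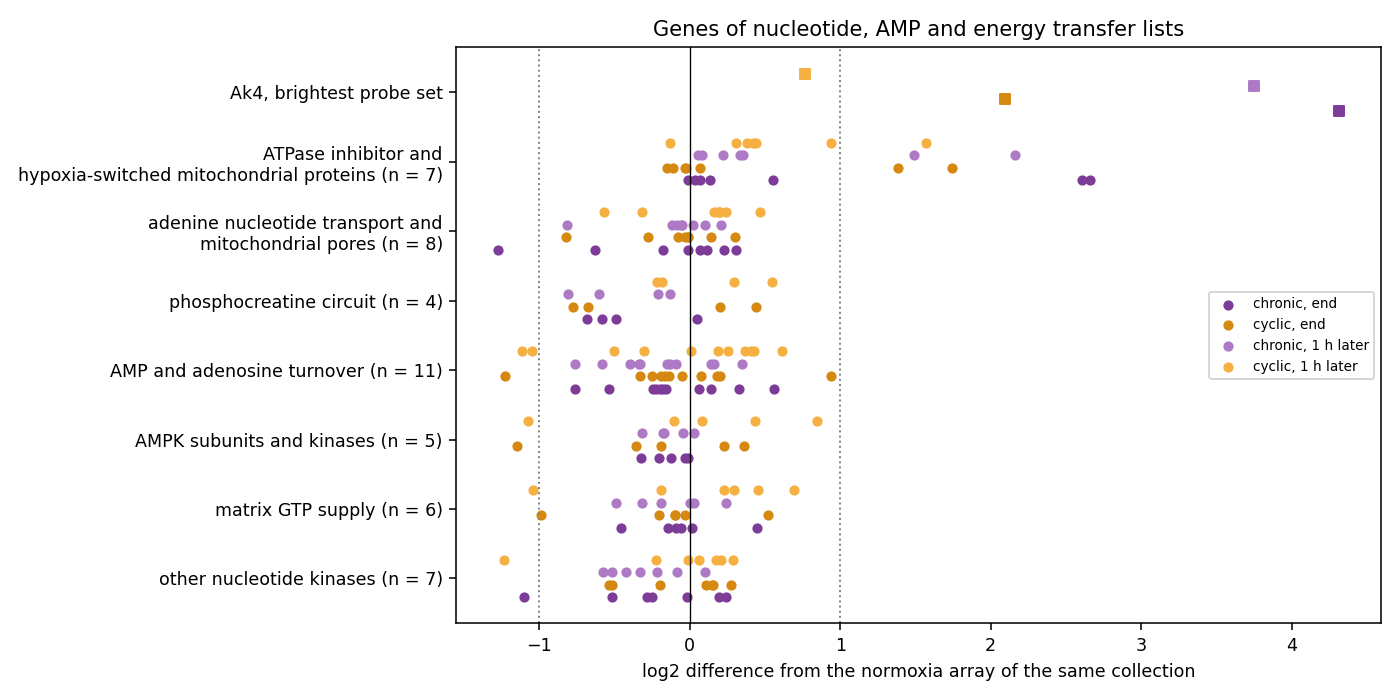
log2 difference from the normoxia array of the same collection (horizontal axis) for each measured gene of 7 lists, 1 point per gene and comparison, colours giving the regime and collection and dotted lines 2-fold; squares in the top row are the brightest Ak4 probe set. Most genes lie between -1 and 1, and the points beyond 1 on the right belong to Pdk1 and Bnip3, below the chronic Ak4 values of 4.31 and 3.75. After cyclic hypoxia and reoxygenation Ak4 (0.76) lies below Bnip3 (1.57), Pdk1 (0.94) and the highest of the other listed genes (0.85).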

How the data were processed

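The 6 columns used are Affymetrix signal intensities deposited by the authors on a linear scale, 1 array per group. The submitters' processing notes name GCOS, with version and algorithm not given in the sources used here. The authors' scaling was kept. Signals were raised to the 20th percentile (2.10 units) where lower and put on the log2 scale; 64 control probe sets and probe sets with a mean under the 40th percentile (8.33 units) were left out. Of 22690 probe sets, 20393 named 1 gene, 691 several and 1606 none, and 20364 matched a current symbol by Entrez identifier. A gene was represented by its brightest probe set.

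Differences between single arrays have no test, and the number of arrays limits precision. The additive fit (regime and collection) used limma 3.58.1 in R 4.3.3 with an intensity trend and Benjamini-Hochberg adjustment at 0.05. It was run on simulated data with the same noise at every probe set and independent arrays. That run does not check whether collections can stand in for replicates. The labels do not say that arrays came from separate cultures, so p-values cover only the spread between these arrays. That spread is what remains once regime and collection are fitted. It can include a response to reoxygenation, since the last hour was reoxygenated only in the hypoxic regimes.

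Named genes were the members, other adenylate kinases, listed genes at least 2-fold different in a hypoxia array or called by the fit (up to 6 per list), and the 10 genes most like Ak4; Nme1, Nme2, Suclg2, Slc25a4, Slc25a5, Atpif1 and Higd1a were named after their values were seen. Lists covered nucleotide kinases, matrix GTP supply, AMPK, AMP turnover, phosphocreatine, nucleotide carriers and mitochondrial proteins, and markers of 5 cell types; Adssl1, Adss and Atpif1 were matched through older symbols. Members and lists were chosen with earlier results of these data known. Alternatives were quantile normalization, median centring, an offset of 16 units, a floor at the 10th percentile, other probe set rules, no filter, no trend and leaving out arrays.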

Additional observations from a re-analysis of the deposited data

Results flagged for a closer look

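All 3 Ak3 probe sets had opposite signs at the 2 collections, with both hypoxia arrays on one side of normoxia at the end and both on the other side 1 h later, but not in the same direction. Log2 differences for chronic and cyclic hypoxia were -0.35 and -0.20 at the end and 0.047 and 0.28 later at 1423717_at. At 1423718_at they were 0.16 and 0.75 at the end and -0.0085 and -0.095 later, and at 1432436_a_at 0.58 and 1.09 at the end and -1.09 and -0.32 later. The pattern rests on small values at 1423717_at, where 0.047 became -0.082 with median centring, and at 1423718_at, where one value was -0.0085. At each collection both values share a normoxia array, and the difference between collections was not tested.

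Ampd3 was on opposite sides of normoxia in the regimes, at 0.33 and 0.35 in the chronic arrays at the end and later and at -1.22 and -0.30 in the cyclic arrays. Adssl1 was at 0.065 (chronic) and 0.076 (cyclic) at the end and at -0.76 and -1.11 in the last collection. It is dim, and its -1.11 comes from 11.8 units against 25.5 in normoxia. Of 2563 probe sets within 1.5-fold of 23.8 units in normoxia, 95% differed by up to 1.81 in that comparison. Neither the Ampd3 nor the Adssl1 difference was tested.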

How the results depend on the processing

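Of the 96 member differences under other settings, none that was at least 2-fold changed direction, and those that moved by more than the SD of the differences between the normoxia arrays (0.44) did so with the offset or another choice of probe sets, not with a scaling. With an offset of 16 units Ak4 gave 3.24 and 1.31 (chronic, cyclic) at the end, 2.83 for chronic hypoxia later and -2.41 for cyclic against chronic hypoxia later. With the mean of all 4 probe sets, dim ones included, Ak4 gave 1.92 and 0.42 at the end, 1.74 and -0.039 later, and -1.49 and -1.78 for cyclic against chronic hypoxia; the mean of its 2 usable probe sets, a choice made after seeing the data, gave 3.65 and 1.43 at the end. Means of all probe sets were 0.13 and 0.55 for Ak3 at the end, and 0.69 and 0.19 at the end and -0.81 and -0.79 later for Ak1. Median centring shifted the median of all genes by 0.11 (cyclic, end), -0.13 (chronic, later), 0.15 (cyclic, later) and 0.28 (cyclic against chronic hypoxia, later), and quantile normalization by 0.10 in the last of these. With median centring Ak4 gave 3.62 (chronic) and 0.92 (cyclic) in the last collection.

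Counts of genes 2-fold higher and lower rose without the filter on dim probe sets, which tests more genes, and dropped with the offset. Without the filter they were 767 and 935 (chronic, end), 613 and 1250 (cyclic, end), 1070 and 608 (chronic, later) and 1357 and 1268 (cyclic, later). With the offset they were 68 and 19, 44 and 89, 59 and 5, and 48 and 411. The 13 limma calls for chronic hypoxia became 21 with quantile normalization, 42 with median centring, 22 with the offset, 0 without the filter, 0 without the trend, and 3 to 70 leaving out an array. The 2 calls for mean hypoxia became 24, 50, 12, 0 and 0, and 4 to 518. The 0 calls for cyclic hypoxia became 20, 300 and 1 with the first 3 settings and 4 to 1268 leaving out an array, and those for cyclic against chronic hypoxia 99 with median centring and 0 to 1333. For chronic hypoxia the count was 5 without the chronic array, 3 without that after its reoxygenation, and 65 and 70 without the respective cyclic arrays. The counts 1268, 518 and 1333 came without the array at the end of cyclic hypoxia. For cyclic and mean hypoxia leaving out any 1 of the 6 arrays moved the count by over 1.5 times, and for cyclic against chronic hypoxia any but the array at the end of chronic hypoxia; the cause was not tested. Under all 11 alternatives Ak3 and Ak1 kept an adjusted limma p of at least 0.392 in every contrast. No pairing by replicate was possible because each group holds 1 array and so the groups share a single replicate number. The fit compared regimes within collections, through a term for the collection, which all regimes share.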
